A study of Mus musculus with 7 samples.

Results

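Transcripts of 36 listed genes of thymocytes and T cells were followed in sorted medullary epithelial cells of the mouse thymus. The list holds the CD3 chains and their signalling partners, coreceptors and other surface proteins, the recombination genes Rag1 and Rag2, transcription factors of the T lineage, and receptors that guide thymocytes through the organ. Members were taken by gene symbol, with 1 probe set per gene, and 34 of the 36 were measured among 19937 genes. Lck and Tcf7 were not among the named probe sets and were not analysed here. None of the 34 had several probe sets.

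RNA came from epithelial cells with high MHC class II, freed from the thymus with collagenase and dispase and then sorted. The reconRAG1KO group (4 samples), the control named by the series, came from NOD mice with a null RAG1, and the reconSCID group (3 samples) from NOD mice with the SCID mutation of DNA-PK, a kinase of DNA end joining. All recipients had been irradiated with 200 rad, were given bone marrow 6 h afterwards as pups of 2 to 4 days, and were analysed 6 to 8 weeks after the transfer. The sources used here do not give the genotype of the donor marrow, the number of thymi behind a sample or the purity of the sort. The samples are called biological replicates but not said to come from separate animals, so p-values and intervals measure the spread between these samples.

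Thymocytes are built in the thymus from marrow progenitors. In the cortex they cut and join their receptor genes with the RAG1 and RAG2 recombinase, add bases with terminal transferase (Dntt), first show a beta chain beside the pre-TCR alpha chain (Ptcra), and then carry CD4 and CD8 together. Cells whose receptor passes selection shut down recombination, take up Ccr7 and move to the medulla, where they meet the self antigens displayed by medullary epithelium. In a bulk sample, fewer cells of a type and less RNA per cell cannot be told apart.

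The 7 arrays formed a set of 5 and a set of 2, each with samples of both groups. The set of 2 holds reconRAG1KO replicate 4 and reconSCID replicate 2. Correlations over all probe sets were 0.976 or more within the 5 arrays, 0.972 within the pair and at most 0.947 between the sets. The labels name no batch, and results are given also from a fit blocked by array set and within each set. The medullary regulator Aire measured between 9.73 and 11.93 and the MHC class II gene H2-Aa between 12.21 and 12.95, above array medians of 6.47 to 6.59. Values are log2 intensities unless a difference is named, a difference is reconSCID minus reconRAG1KO, and 4 values are given in the order of reconRAG1KO replicates 1 to 4 and 3 values in that of reconSCID replicates 1 to 3. The file gives no detection call, so a value does not show by itself that a transcript was present.

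None of the members passed the test between the groups, while 5 of them shared 1 order across the 7 arrays. The promoters of 4 of these 5 are shown beside those of 2 members that hardly varied, so that genes that moved together can be set beside genes that did not. They were chosen after the values were seen. Satb1, the fifth, is not shown, and it had 5 windows where each gene shown had 1. Each run gives the 250 bases before an annotated start, 5′ to 3′ on the strand of the gene, from RefSeq on GRCm38.p6, in which 25 of the 36 listed genes had a window. Capitals mark matches on either strand to 5 short motifs, the E box CANNTG of E proteins, AGGAAG of Ets factors, TGTGGT of Runx factors, CTTTGA of Tcf and Lef factors and AGATAA of Gata factors. The first 4 are members with the order of Rag1 and the last 2 are members with a narrow range.
Rag1 promoter at chr2:101649533-101649782, minus strand: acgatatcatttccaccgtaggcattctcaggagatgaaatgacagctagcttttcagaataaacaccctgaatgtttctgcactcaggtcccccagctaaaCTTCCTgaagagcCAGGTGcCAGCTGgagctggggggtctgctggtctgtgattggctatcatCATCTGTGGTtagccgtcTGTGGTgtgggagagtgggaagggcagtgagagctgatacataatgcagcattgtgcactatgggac
Cd8a promoter at chr6:71373177-71373426, plus strand: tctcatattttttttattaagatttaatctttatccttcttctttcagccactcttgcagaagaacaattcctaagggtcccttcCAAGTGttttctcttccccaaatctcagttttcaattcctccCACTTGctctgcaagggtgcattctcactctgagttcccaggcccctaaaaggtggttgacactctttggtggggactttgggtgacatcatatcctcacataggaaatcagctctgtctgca
Cd3g promoter at chr9:44980432-44980681, minus strand: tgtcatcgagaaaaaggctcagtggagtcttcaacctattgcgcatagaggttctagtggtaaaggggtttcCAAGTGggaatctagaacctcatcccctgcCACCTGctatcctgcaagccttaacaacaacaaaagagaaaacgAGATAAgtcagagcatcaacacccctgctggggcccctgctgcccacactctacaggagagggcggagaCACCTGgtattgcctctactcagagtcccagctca
Lat promoter at chr7:126369569-126369818, minus strand: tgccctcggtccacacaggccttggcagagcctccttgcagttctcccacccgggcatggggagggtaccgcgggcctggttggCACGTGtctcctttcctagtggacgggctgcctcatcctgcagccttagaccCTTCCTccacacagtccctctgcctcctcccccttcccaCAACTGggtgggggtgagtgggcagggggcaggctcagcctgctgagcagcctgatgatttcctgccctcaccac
Gata3 promoter at chr2:9878601-9878850, minus strand: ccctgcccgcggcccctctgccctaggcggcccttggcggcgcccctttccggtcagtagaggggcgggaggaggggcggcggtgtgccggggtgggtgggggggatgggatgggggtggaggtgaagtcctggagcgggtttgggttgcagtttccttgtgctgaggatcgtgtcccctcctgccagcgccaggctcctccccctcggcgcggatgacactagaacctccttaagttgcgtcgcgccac
Cd247 promoter at chr1:165788431-165788680, plus strand: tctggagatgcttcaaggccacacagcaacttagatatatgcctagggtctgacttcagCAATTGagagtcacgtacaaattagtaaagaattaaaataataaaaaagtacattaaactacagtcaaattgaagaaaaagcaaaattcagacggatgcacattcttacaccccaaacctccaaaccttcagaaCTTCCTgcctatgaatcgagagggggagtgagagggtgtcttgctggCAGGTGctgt

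The Rag1 window held 3 E boxes, 2 Runx matches and 1 Ets match, and an E box overlapped a Runx match. Cd8a had 2 E boxes, Cd3g had 3 E boxes and 1 Gata match, and Lat had 2 E boxes and 1 Ets match. Cd247, of narrow range, likewise held 2 E boxes and 1 Ets match, and Gata3 had 0 matches. Of the 5 windows of Satb1, which has the order of Rag1, 3 also had 0 matches, 1 had 1 E box and 1 had 2 E boxes and 1 Ets match. Of 32851 promoter windows of this length, 66.2% held an E box, 29.5% the Ets letters, 14% the Runx letters, 13.8% the Tcf letters and 9.99% the Gata letters. A match describes letters and is not a binding site.

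Rag1, a recombinase gene and the one that is null in the control recipients, varied widely in both groups. Rag1 (probe set 10485372) had values of 8.82, 9.001, 7.83 and 7.22 in reconRAG1KO against 8.22, 7.11 and 9.46 in reconSCID. The highest and the lowest sample were both reconSCID, and all reconRAG1KO values lay between them. The means were 8.22 ± 0.84 (SD, n = 4) and 8.26 ± 1.18 (SD, n = 3), and they differed by 0.04 (95% limits -1.51 and 1.59). The fit blocked by array set gave 0.17 (95% limits -0.83 and 1.17). From the lowest to the highest array Rag1 spanned 5.10-fold. Donor thymocytes can carry Rag1 transcripts, and where the probes lie against the null allele is not known here, so these levels do not check a recipient's genotype.

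The other genes of receptor assembly did not separate the groups either. Rag2, the partner of Rag1 and its neighbour on the chromosome, had values of 3.92, 3.92, 3.87 and 3.77 in reconRAG1KO against 3.92, 3.81 and 4.50 in reconSCID. Rag2 lay below the array median everywhere, 3 of its values were equal, and reconSCID replicate 3 alone stood apart, on the high side. Its difference was 0.21 (95% limits -0.20 and 0.62). Dntt had values of 7.42, 7.42, 6.80 and 5.92 in reconRAG1KO against 6.90, 6.24 and 7.72 in reconSCID. ReconSCID replicate 3 was again the highest and the set of 2 arrays the lowest, and the difference of Dntt was 0.06 (95% limits -1.09 and 1.20). Ptcra had values of 6.50, 6.50, 6.26 and 7.02 in reconRAG1KO against 6.43, 6.99 and 6.50 in reconSCID. Unlike Rag1 and Dntt, Ptcra was highest in the set of 2 arrays, and its difference was 0.07 (95% limits -0.45 and 0.58).

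Over the whole list the groups did not separate. By limma with Benjamini-Hochberg adjustment over 34760 probe sets, 0 of 34 members had an adjusted p under 0.05, as did 0 of all probe sets (0%). At an unadjusted p under 0.05 by limma there were 0 members higher and 0 lower, against 2.2% and 1.13% of all probe sets and 3.33% in either direction. The groups overlapped in all 34 members, whereas in 2.77% of the 19937 genes they did not (1.23% higher and 1.54% lower). Of the members 17 were higher and 17 lower in reconSCID, and 52.4% of all genes were lower. The median difference was 0.00 over the members and -0.01 over all genes. The fit blocked by array set also called 0 members and 0% of probe sets, with a member median of 0.06 and 22 higher and 12 lower. The member median was 0.10 within the 5 arrays and 0.02 within the 2 arrays. The even split rests on single samples, which moved it both ways. Of the members 10 were lower without reconRAG1KO replicate 1, 8 without reconRAG1KO replicate 2 and 10 without reconSCID replicate 2. Without reconSCID replicate 3, 24 were lower.

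**Figure D1:**
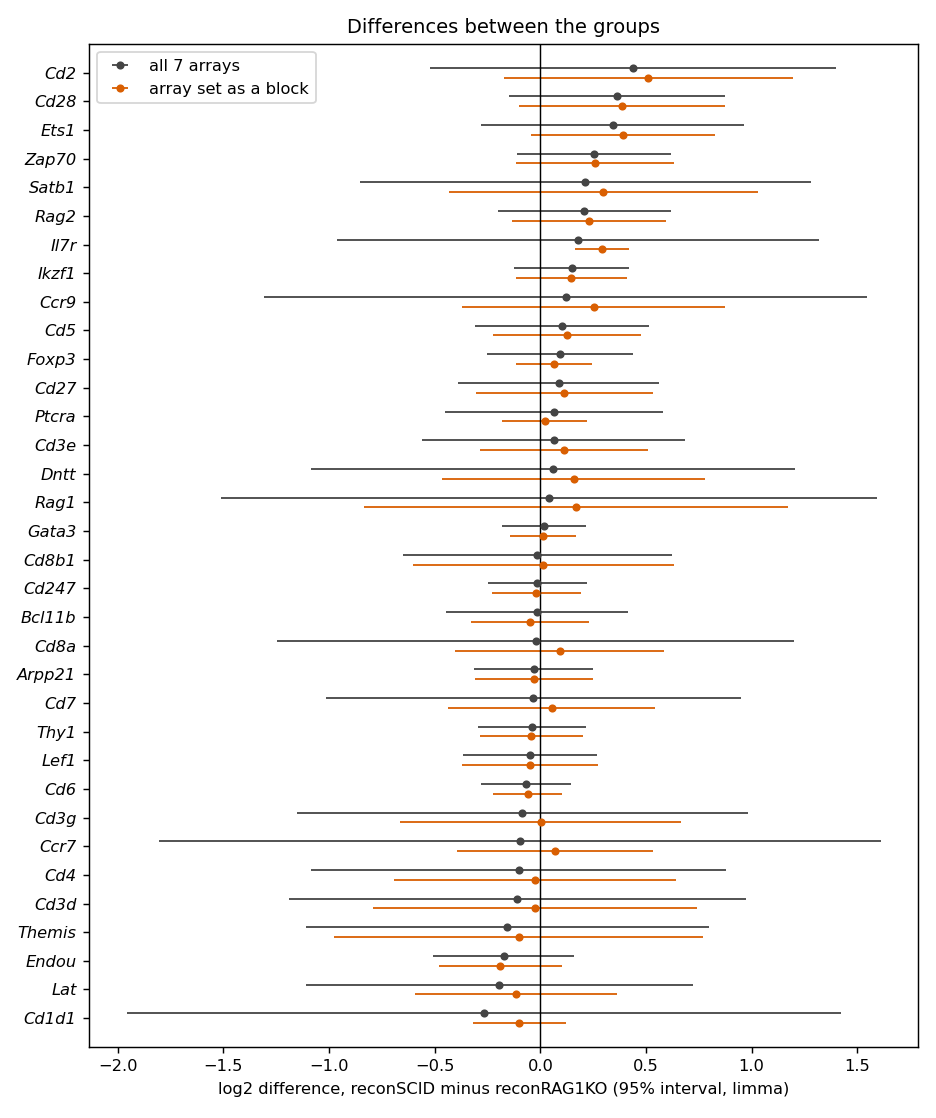
Log2 difference of each of the 34 members, reconSCID minus reconRAG1KO (horizontal axis), with 95% intervals from limma over all 7 arrays (dark grey) and from the fit blocked by array set (orange). All grey intervals hold 0, and Il7r is the 1 member whose orange interval lies above 0.

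The intervals of the fit without a block show what size of difference that fit could have missed. They reached from 0.198 on either side of the estimate for Gata3 to 1.71 for Ccr7. For Gata3, Cd6, Cd247 and Thy1 a change beyond 0.3 in either direction lies outside the interval. For Rag1, Ccr7, Ccr9 and Cd1d1 a change of 1, which is 2-fold, lies inside it both ways. The largest differences were those of Cd2, Cd28 and Ets1 on the higher side and of Cd1d1 on the lower.

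Cd2, an adhesion receptor of T cells, had values of 8.11, 8.31, 7.63 and 7.56 in reconRAG1KO against 8.46, 7.44 and 9.12 in reconSCID. ReconSCID replicates 3 and 1 were the highest samples and reconSCID replicate 2 the lowest, and the difference was 0.44 (95% limits -0.52 and 1.399). Cd28, the costimulatory receptor, had 6.99, 6.93, 6.61 and 6.76 in reconRAG1KO against 7.02, 6.85 and 7.68 in reconSCID. Its difference was 0.36 (95% limits -0.15 and 0.87). Ets1, a transcription factor of lymphocytes, had 7.76, 7.76, 7.59 and 7.30 in reconRAG1KO against 7.85, 7.45 and 8.53 in reconSCID, a difference of 0.34 (95% limits -0.28 and 0.97). In all 3 genes reconSCID replicate 3 was the highest array, and reconSCID replicate 2 lay within the range of reconRAG1KO or below it.

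The CD3 chains, which carry the signal of the receptor into the cell, varied together by array. Cd3g had values of 9.25, 9.28, 8.44 and 8.17 in reconRAG1KO against 8.85, 7.82 and 9.42 in reconSCID. Cd3d, its neighbour on the chromosome, had 7.81, 7.59, 6.86 and 6.83 in reconRAG1KO against 7.35, 6.20 and 7.94 in reconSCID. Cd3e had 7.54, 7.69, 7.33 and 6.67 in reconRAG1KO against 7.30, 7.16 and 7.64 in reconSCID. All 3 chains were low in the set of 2 arrays and high in reconSCID replicate 3 and in reconRAG1KO replicates 1 and 2. Their differences were -0.09, -0.11 and 0.06. Cd247, the zeta chain, had 7.13, 7.10, 6.93 and 7.005 in reconRAG1KO against 6.91, 7.14 and 7.03 in reconSCID, a difference of -0.02. Cd247 spanned 0.24 over the 7 arrays and did not show the variation of the other chains. Its highest array, reconSCID replicate 2, was the lowest for Cd3g and Cd3d, but an order within so narrow a span says little.

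Among signalling genes, Lat, the adaptor phosphorylated below the receptor, had values of 7.93, 8.04, 7.48 and 7.001 in reconRAG1KO against 7.53, 6.67 and 8.06 in reconSCID. Themis, a regulator of positive selection, had 6.74, 6.78, 6.44 and 6.41 in reconRAG1KO against 6.12, 5.72 and 7.47 in reconSCID. The differences of -0.19 for Lat and -0.16 for Themis were smaller than the SD of reconRAG1KO (0.47 and 0.19) and of reconSCID (0.70 and 0.92). Zap70, the kinase that docks on the phosphorylated receptor, had 6.20, 6.20, 6.15 and 5.80 in reconRAG1KO against 6.11, 6.55 and 6.37 in reconSCID. It was highest in reconSCID replicate 2 and lowest in reconRAG1KO replicate 4, and its difference was 0.25 (95% limits -0.11 and 0.62). Within the 5 arrays the difference of Zap70 was 0.05 and within the 2 arrays 0.75.

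Coreceptor genes varied by array much as the CD3 chains did, except that Cd8b1 was not lowest in the set of 2 arrays. Cd8a, the CD8 alpha chain, had values of 9.45, 9.52, 8.85 and 8.06 in reconRAG1KO against 9.27, 7.92 and 9.65 in reconSCID. Cd8b1, the beta chain, had 8.10, 8.27, 7.48 and 7.74 in reconRAG1KO against 7.72, 7.55 and 8.38 in reconSCID. Cd4, which dendritic cells and macrophages can also express, had 9.37, 9.23, 9.12 and 8.89 in reconRAG1KO against 9.29, 8.00 and 9.85 in reconSCID. In each of the 3 the highest array was reconSCID replicate 3. The lowest was reconSCID replicate 2 for Cd8a and Cd4 and reconRAG1KO replicate 3 for Cd8b1. Their differences were -0.02, -0.01 and -0.10. The other surface members Cd5, Cd6, Cd7, Cd27 and Thy1 had differences from -0.07 (Cd6) to 0.10 (Cd5).

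The transcription factors split in how far they varied. Satb1, a chromatin organiser abundant in thymocytes, had values of 9.83, 9.83, 9.32 and 9.03 in reconRAG1KO against 9.71, 8.77 and 10.67 in reconSCID. Gata3, needed for the T lineage, had 7.07, 7.04, 6.92 and 7.04 in reconRAG1KO against 7.04, 7.09 and 6.97 in reconSCID. Bcl11b, a commitment factor of the T lineage, had 8.05, 7.99, 7.91 and 8.18 in reconRAG1KO against 7.69, 8.43 and 7.94 in reconSCID. Over the 7 arrays Satb1 spanned 1.90, Bcl11b 0.74 and Gata3 0.17, and their differences were 0.21, -0.02 and 0.02. Ikzf1, a regulator found throughout the lymphoid lineages, had 8.85, 9.08, 9.08 and 9.12 in reconRAG1KO against 9.06, 9.13 and 9.35 in reconSCID, a difference of 0.15 (95% limits -0.12 and 0.42). Lef1 differed by -0.05.

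**Figure D2:**
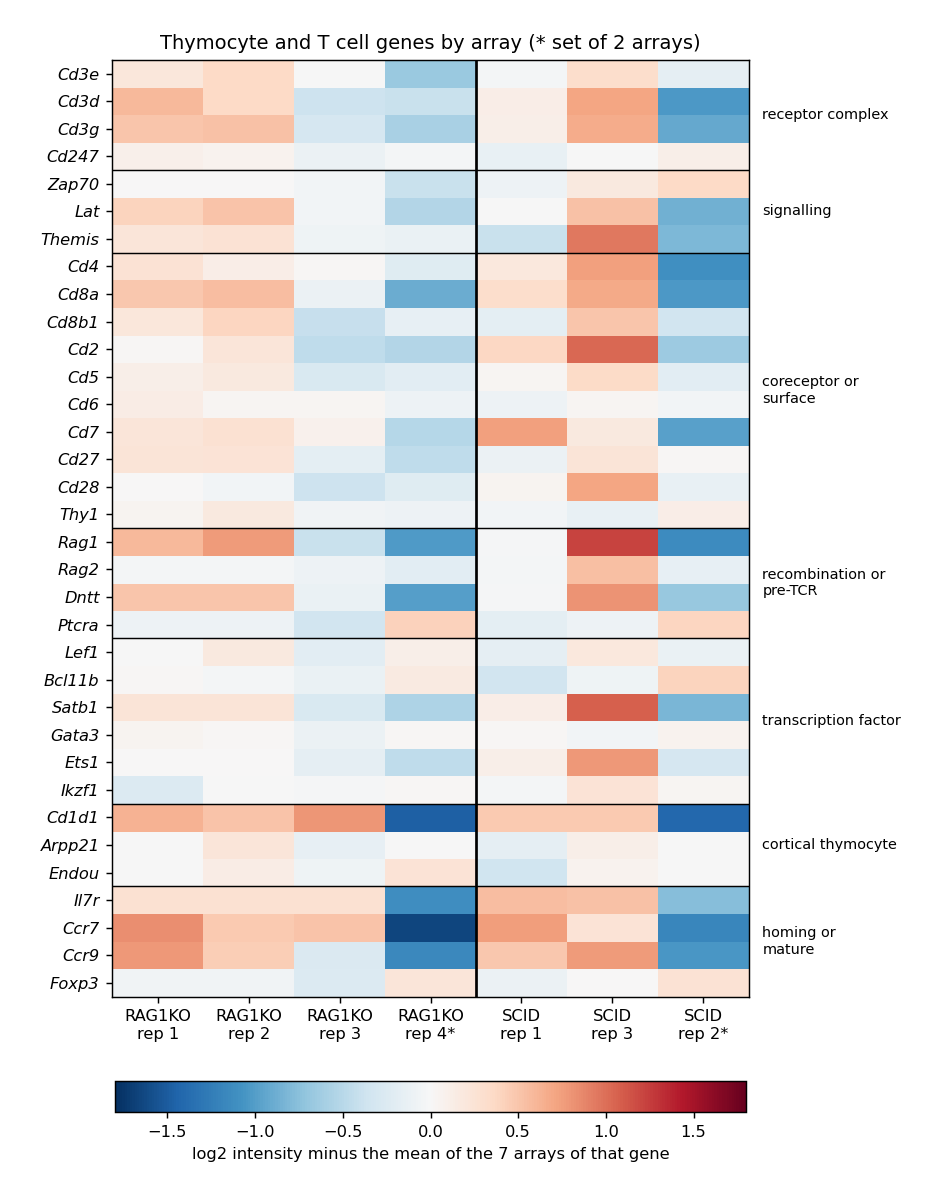
Each cell is a member's log2 intensity in 1 array minus that gene's mean over the 7 arrays (colour scale), with rows grouped by role and the set of 2 arrays marked by asterisks. Rag1, Satb1, Cd2 and Themis are reddest in reconSCID replicate 3, and Cd1d1, Ccr7, Ccr9 and Il7r are blue in both marked arrays.

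Much of the variation of the members lay between arrays of 1 group. The span of a gene is its highest minus its lowest array. Over the 7 arrays the median member spanned 1.05 and 18 of 34 spanned more than 1, while the median gene spanned 0.57 and 17.6% of genes spanned more than 1. Over the 5 arrays the median member spanned 0.58 and the median gene 0.25. There 14 members exceeded the 90th percentile of all genes (0.629). Rag1 had the widest span of the members over the 5 arrays, 1.63, and 0.477% of all genes had a wider one. Cd2 (1.49), Themis (1.35), Satb1 (1.35), Cd3d (1.08), Cd28 (1.08) and Ccr9 (1.04) followed. The 4 members below the median gene were Gata3 (0.15), Cd247 (0.22), Cd6 (0.23) and Ptcra (0.24).

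**Figure D3:**
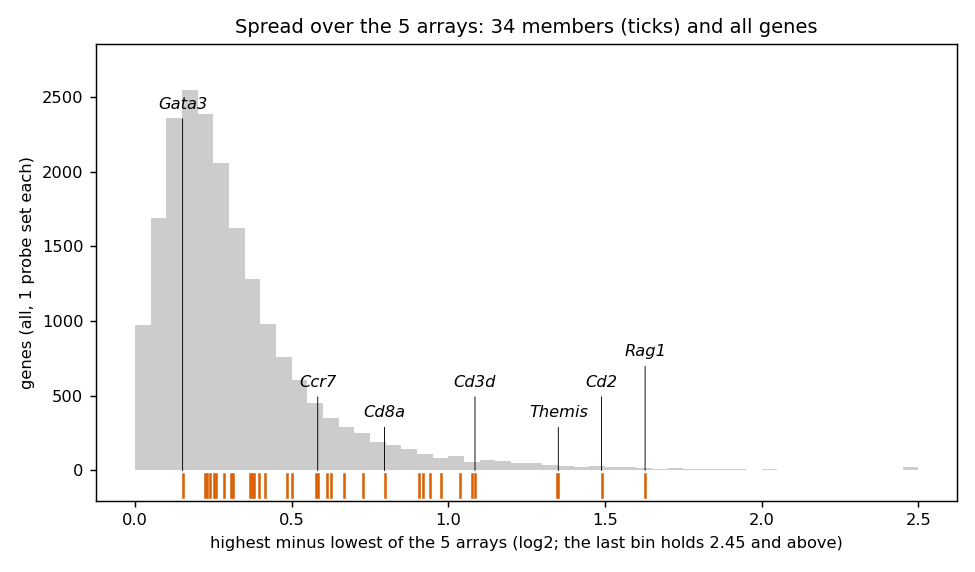
Grey bars count all 19937 genes by their highest minus lowest value over the 5 arrays (log2), and orange ticks mark the 34 members. Rag1 lies at 1.63 and Gata3 at 0.15, and 14 ticks lie beyond 0.629, the 90th percentile of genes.

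Some members shared 1 order of arrays. From high to low, the order of Rag1 was reconSCID replicate 3, reconRAG1KO replicate 2, reconRAG1KO replicate 1, reconSCID replicate 1, reconRAG1KO replicate 3, reconRAG1KO replicate 4 and reconSCID replicate 2. Cd8a, Cd3g, Lat and Satb1 had the same order, which makes 5 of 34 members, against 25 of 19937 genes (0.125%). Over the 5 arrays alone, 9 members had the order of Rag1 (0.622% of genes), the other 4 being Cd8b1, Cd5, Dntt and Lef1. Rag1, which sets the order, is itself counted in all of these figures. The order was noticed in these values, so it is a description with no test. It mixes the groups, with a reconSCID sample at each end. ReconSCID replicate 3 was the highest of the 7 arrays in 17 of 34 members, against 15.3% of genes. In 11 members it was the highest while both of the 2 arrays were the lowest, against 7.87% of genes.

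A second pattern was a drop at the set of 2 arrays. Ccr7, the chemokine receptor that brings selected thymocytes and dendritic cells to the medulla, had values of 12.26, 11.90, 11.95 and 9.78 in reconRAG1KO against 12.19, 10.26 and 11.68 in reconSCID. Il7r, a chain of the interleukin 7 receptor, had 8.24, 8.23, 8.23 and 6.84 in reconRAG1KO against 8.52, 7.19 and 8.49 in reconSCID. Cd1d1, which presents lipids to NKT cells and is found on cortical thymocytes and antigen-presenting cells, had 7.90, 7.78, 8.06 and 5.79 in reconRAG1KO against 7.75, 5.86 and 7.75 in reconSCID. Compared within groups, Ccr7, Il7r and Cd1d1 were lower in the 2 arrays by 1.97, 1.35 and 2.00. Over the 5 arrays they spanned 0.58, 0.29 and 0.31. Ccr9, the receptor for a chemokine of thymic epithelium, had 7.86, 7.52, 6.82 and 5.92 in reconRAG1KO against 7.57, 6.04 and 7.84 in reconSCID. It was also lower in the 2 arrays, by 1.58, and varied within the 5 arrays as well.

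Of the 34 members 26 were lower in the 2 arrays, against 36.1% of all genes, and in 17 both of the 2 lay below the other 5, against 20.1%. The median member was lower there by 0.46, while the median gene was higher by 0.119. The sets were found from all probe sets, members included, so this contrast carries no test. The 8 members not lower there were Ptcra, Bcl11b, Foxp3, Endou, Cd247, Gata3, Thy1 and Ikzf1, which were higher by 0.02 (Ikzf1) to 0.56 (Ptcra).

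**Figure D4:**
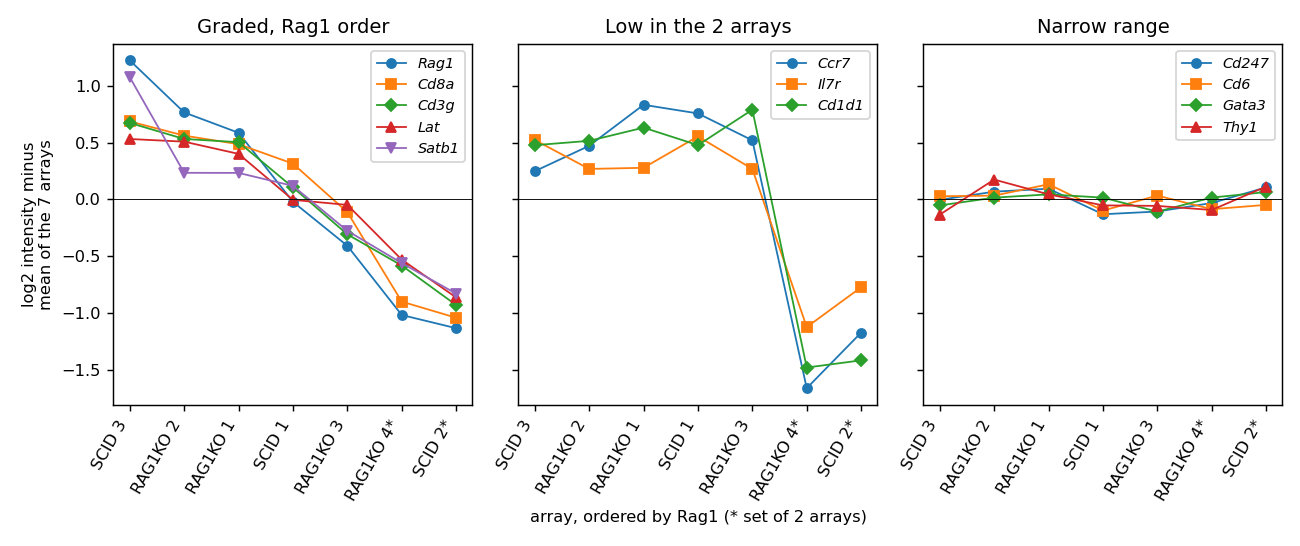
Log2 intensity minus the mean of the 7 arrays for members of 3 patterns, with the arrays ordered by Rag1 from high to low and the set of 2 arrays marked by asterisks. Rag1, Cd8a, Cd3g, Lat and Satb1 step down along the axis, Ccr7, Il7r and Cd1d1 drop at the 2 marked arrays, and Cd247, Cd6, Gata3 and Thy1 each span 0.31 or less.

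Early and mature members were set side by side to compare the balance of these transcripts between the groups. Ccr7 and Cd1d1 among them are also known in dendritic cells, so the comparison does not isolate the stage of thymocytes. Early members, of cortical stages, were Rag1, Rag2, Dntt, Ptcra, Arpp21, Endou, Cd1d1 and Ccr9. Mature members, which rise with selection or mark later T cells, were Ccr7, Il7r, Foxp3, Cd5 and Cd6. The median difference was 0.05 over the 8 early members, of which 5 were higher and 3 lower, and 0.09 over the 5 mature members, of which 3 were higher and 2 lower. Early minus mature median was -0.04, and 0.02 in the fit blocked by array set. Single samples moved these medians. Without reconSCID replicate 3 they were -0.24 and -0.04, and without reconSCID replicate 2 they were 0.35 and 0.23. The mature median is the value of Foxp3. A filter on dim probe sets left out Rag2, Arpp21, Endou and Foxp3 of the stage members. It gave medians of 0.06 (early) and 0.02 (mature), and early minus mature turned to 0.04.

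By sample, the mean of the early members was 6.82, 6.83, 6.44 and 6.00 in reconRAG1KO against 6.55, 6.02 and 7.01 in reconSCID. That of the mature members was 8.25, 8.17, 8.05 and 7.43 in reconRAG1KO against 8.22, 7.61 and 8.22 in reconSCID. Early minus mature was -1.43, -1.34, -1.61 and -1.43 in reconRAG1KO against -1.67, -1.59 and -1.22 in reconSCID. The groups overlapped in all 3 measures, and reconSCID replicate 3 leaned most toward early members while reconSCID replicate 1 leaned least. The group means of this balance were -1.46 ± 0.11 (SD, n = 4) and -1.49 ± 0.24 (SD, n = 3), and they differed by -0.04, below either SD. Its zero point has no meaning, because probe sets of different genes are combined.

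Of the remaining stage members, Foxp3, the factor of regulatory T cells, had values of 6.23, 6.23, 6.05 and 6.51 in reconRAG1KO against 6.18, 6.56 and 6.30 in reconSCID, a difference of 0.09. Arpp21 and Endou are genes of cortical thymocytes. Arpp21 had 6.09, 6.31, 5.94 and 6.09 in reconRAG1KO against 5.93, 6.09 and 6.20 in reconSCID, a difference of -0.03. Endou had 6.02, 6.15, 5.94 and 6.28 in reconRAG1KO against 5.67, 6.02 and 6.09 in reconSCID, a difference of -0.17 (95% limits -0.51 and 0.16). Neither followed the order of Rag1. Cd5 and Cd6 are surface regulators of receptor signalling. Cd5 had 7.18, 7.26, 6.81 and 6.89 in reconRAG1KO against 7.11, 6.89 and 7.42 in reconSCID, and Cd6 had 7.33, 7.23, 7.23 and 7.11 in reconRAG1KO against 7.10, 7.15 and 7.23 in reconSCID. Cd5 was highest in reconSCID replicate 3, and Cd6 hardly varied. Of the 34 members 10 held at least 1 repeated value among their 7, Arpp21 with 3 equal ones, which can make a spread look smaller than it was.

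Il7r was the 1 member whose interval excluded 0 in the fit blocked by array set. Its blocked difference was 0.29 (95% limits 0.16 and 0.42), and its limma adjusted p was 0.2367, so it did not pass. That makes 1 member higher and 0 lower at the unadjusted level, where 6.53% of all probe sets were higher and 5.77% lower with the block (12.3% in either direction). Without the block the difference was 0.18 (95% limits -0.96 and 1.32). It was 0.27 within the 5 arrays and 0.35 within the 2 arrays. The reconRAG1KO values of Il7r in the 5 arrays lay within 0.01 of each other and 2 of them were equal.

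Further genes known in thymocytes and T cells were read in 3 lists drawn up with earlier results known. Not all of them are particular to T cells, so these lists do not isolate the T lineage. Of 20 further genes of receptor signalling 18 were measured, of which 14 were higher and 4 lower with a median difference of 0.10, and 0 passed. The direction of this list turned between the array sets, with 17 higher and 1 lower within the 5 arrays (median 0.27) but 6 higher and 12 lower within the 2 arrays (median -0.07). Ptprc, the CD45 phosphatase of white blood cells, had values of 10.22, 10.21, 9.99 and 8.93 in reconRAG1KO against 10.83, 9.29 and 11.26 in reconSCID. It was highest in reconSCID replicates 3 and 1, and its difference was 0.63 (95% limits -0.65 and 1.90). In the fit blocked by array set the difference of Ptprc was 0.75 (95% limits 0.35 and 1.14), with a limma adjusted p of 0.254. Grap2 differed by 0.36 and Ptpn22 by 0.36. Of 16 genes of later T cells 15 were measured, of which 11 were higher and 4 lower with a median of 0.18, and 0 passed. Within the 5 arrays 12 of these were higher and within the 2 arrays 9. Gimap4, a GTPase gene of lymphocytes, had 6.76, 6.75, 6.41 and 6.34 in reconRAG1KO against 7.42, 6.75 and 8.05 in reconSCID, a difference of 0.84 (95% limits 0.12 and 1.55). S1pr1, the receptor by which mature cells leave the thymus and which endothelium also expresses, had 7.10, 7.34, 7.34 and 7.06 in reconRAG1KO against 7.39, 7.63 and 8.39 in reconSCID. Every reconSCID value of S1pr1 lay above every reconRAG1KO value, and its difference was 0.59 (95% limits 0.02 and 1.17). Gimap4 and S1pr1 were named for the smallest p of their list, and the limma adjusted p of each was 1. They are the 2 of 15 at an unadjusted p under 0.05 by limma, where 2.2% of all probe sets were higher, and S1pr1 is the 1 of 15 without overlap, against 1.23% of genes on the higher side. With the block Gimap4 differed by 0.89 (95% limits 0.36 and 1.42) and S1pr1 by 0.61 (95% limits 0.02 and 1.199). Gimap3 differed by 0.18 without it. Of 8 further early thymocyte genes 7 were measured, of which 4 were higher and 3 lower with a median of 0.07, and 0 passed. The transcription factor genes Runx1, Tcf3 and Hes1 differed by 0.41, -0.13 and -0.14. Whereas 26 of 34 members were lower in the 2 arrays, all 7 were higher there, by 0.06 (Tcf3) to 1.18 (Notch1, which epithelium also expresses). Of all genes 36.1% were lower in the 2 arrays, so most genes were not. Which cells the transcripts of these 7 genes came from was not tested. With the block, 3 of the 18 signalling genes and 4 of the 15 later genes were higher at an unadjusted p under 0.05 by limma. At that level 0 of either list were lower, and 0 of the 7 early genes were higher and 1 lower. Of all probe sets 6.53% were higher and 5.77% lower, and 0 genes of the 3 lists passed after adjustment.

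Markers of dendritic cells and macrophages were high and low in the same arrays as many members. All 12 were measured, with a list mean of 8.82, 8.79, 8.55 and 8.05 in reconRAG1KO against 9.05, 7.69 and 9.35 in reconSCID. Their summed intensity was 7160 to 11510 in reconRAG1KO and 5460 to 17960 in reconSCID. Averaged over the groups all 12 were lower in the 2 arrays, and in 8 both of the 2 lay below the other 5. Siglech, Csf1r, Cd68 and Mertk were not among these 8. In reconRAG1KO Mertk was highest in replicate 4, at 7.68 against 7.31, 7.32 and 7.17 in replicates 1 to 3. Xcr1, a receptor of cross-presenting dendritic cells, was lower there by 2.53 and Flt3, a dendritic cell receptor, by 1.58. Flt3 stayed between 9.85 and 10.11 in the 5 arrays. Ccr7, Cd4, Cd1d1 and Ikzf1 among the members are also known in dendritic cells. The part of these cells in the member values was not tested.

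Mature B cell markers were mostly highest in the sample in which Rag1 was highest, and B progenitor markers were divided. Of 8 mature B cell genes 7 were measured, with a list mean of 6.67, 6.61, 6.47 and 6.60 in reconRAG1KO against 7.45, 6.65 and 8.17 in reconSCID and a summed intensity of 712.5 to 814.6 in reconRAG1KO and 790.0 to 2040 in reconSCID. ReconSCID replicate 3 was the highest for 6 of the 7. Rag1, Rag2 and Dntt are expressed in developing B cells too, and of 10 genes of those cells 9 were measured, with a list mean of 7.11, 7.02, 7.05 and 7.15 in reconRAG1KO against 7.38, 7.26 and 7.91 in reconSCID and a summed intensity of 1679 to 1911 in reconRAG1KO and 1870 to 3625 in reconSCID. ReconSCID replicate 3 was the highest for 4 of these 9, Pax5, Ebf1, Cd79a and Cd79b, and not for Vpreb1, Vpreb2, Vpreb3, Igll1 or Blnk. Pax5, a B lineage factor, had 7.26, 6.68, 6.95 and 6.93 in reconRAG1KO against 7.77, 7.26 and 9.21 in reconSCID. Vpreb1, a surrogate light chain gene of B progenitors, had 5.88, 5.38, 5.40 and 6.00 in reconRAG1KO against 5.56, 6.32 and 5.98 in reconSCID and was highest in reconSCID replicate 2, where Rag1 was lowest. Igll1 had 6.81, 6.81, 7.15 and 6.82 in reconRAG1KO against 6.54, 6.81 and 6.60 in reconSCID and was lowest in reconSCID replicates 1 and 3. The part of B cells in the member values was not tested.

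Most epithelial markers were higher in the 2 arrays, where many members were lower, but so were most genes. Of all genes 36.1% were lower there, against 1 of the 5 general and 2 of the 9 medullary epithelial genes. All 5 general epithelial genes were measured, with a list mean of 9.64, 9.80, 10.03 and 10.48 in reconRAG1KO against 9.45, 10.26 and 9.03 in reconSCID and a summed intensity of 4841 to 9520 in reconRAG1KO and 2822 to 7395 in reconSCID. This list mean was lowest in reconSCID replicate 3 and highest in the 2 arrays. Both of the 2 lay above the other 5 for 3 of the 5 genes, and for 37% of all genes. Lsr was not higher there, with a set difference of -0.05. The 9 medullary epithelial genes had a list mean of 9.95, 10.05, 10.24 and 10.31 in reconRAG1KO against 9.78, 10.17 and 9.32 in reconSCID and a summed intensity of 11030 to 14880 in reconRAG1KO and 9248 to 14450 in reconSCID. Both of the 2 arrays lay above the other 5 for 4 of the 9, near the 37% of all genes. Ctss and Cd80, which antigen-presenting blood cells also express, went with the members instead and were lower in the 2 arrays by 1.85 and 1.08, and Ctss was highest in reconSCID replicate 3. Proliferation genes, 6 of 7 measured, were highest in reconSCID replicate 3 (8.91) and lowest in reconRAG1KO replicate 4 (8.09), and neutrophil genes, 6 of 6, were highest in reconRAG1KO replicate 2 (9.84) and lowest in reconSCID replicate 2 (6.12). A list of members chosen as T lineage genes held Cd3e, Cd3d, Cd3g, Cd8b1, Lat, Themis, Bcl11b, Ptcra and Zap70. Their expression in other cells was not tested, so the list does not isolate T cells. It had a mean of 7.57, 7.59, 7.15 and 7.09 in reconRAG1KO against 7.23, 7.01 and 7.75 in reconSCID. Of these 9 members 7 were lower in the 2 arrays, and Ptcra and Bcl11b were higher there by 0.56 and 0.40. Of 14 members also known in other blood cells 13 were lower there. Whether the share of epithelial cells moved the member values was not tested.

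**Figure D5:**
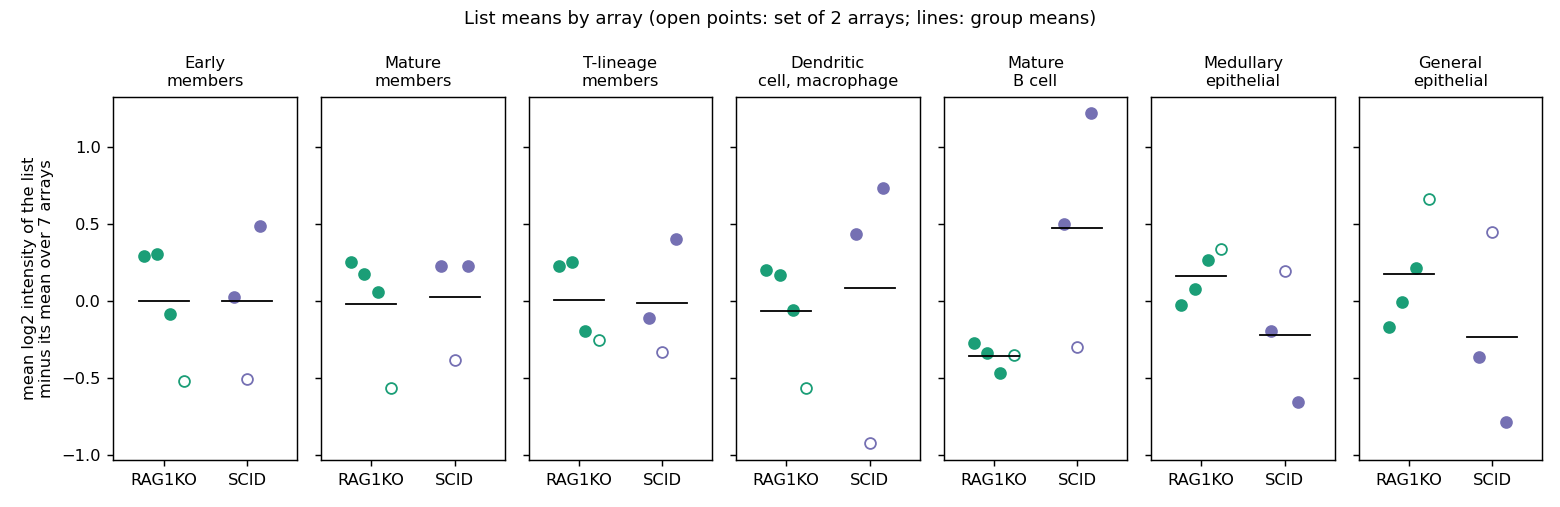
Mean log2 intensity of each list by array minus its mean over the 7 arrays, for reconRAG1KO (green, n = 4) and reconSCID (purple, n = 3), with open points for the set of 2 arrays and lines at the group means. Early, mature and T-lineage members overlap between the groups, and reconSCID replicate 3 is the highest point for mature B cell and dendritic cell genes and the lowest for both epithelial lists.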

How the data were processed

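Expression was measured on 7 arrays with biotinylated cRNA made from 6 µg of total RNA, per the labels. The authors deposited an intensity for each probe set, on a linear scale, with arrays already at similar levels. Their method of summary and normalization is not stated in the sources at hand. Among 34760 probe sets there were 0 values below 1, and log2 was taken with no pseudocount. The platform annotation gave 1 symbol for 21640 probe sets, several for 1321 and none here for 11799. A gene is its probe set of 1 symbol with the highest mean. The number of arrays limits the precision.

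Groups were compared by lmFit and eBayes (R 4.3.3 with limma 3.58.1) on log2 intensity, as a two-sided test adjusted by Benjamini-Hochberg over all probe sets, with a threshold of 0.05. The fit was tested on simulated data. Array sets came from clustering the correlations between arrays. The members, lists, array-set alternatives and tests were chosen with earlier results of these data known. Any member could be named. Described in full are the assembly, cortical, receptor and stage members, and those among the 5 smallest p or 5 largest differences. Of the other T cell lists the 3 genes with the smallest p are named. Cd8a, Cd8b1, Cd4, Lat, Themis, Satb1, Bcl11b, Notch1, Xcr1, Flt3, Vpreb1 and Igll1, the 3 array patterns, the promoters and the motifs were singled out after values were seen. Alternatives were other normalizations, filters, fits and blocks, and leaving out each sample.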

Additional observations from a re-analysis of the deposited data

Results flagged for a closer look

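In the reconRAG1KO group of 4, 5 of 37 values checked had 1 sample far from the other 3. Chance gives about 1 in 20 for each value, but these values share the same 4 arrays, so the count is not a test. ReconRAG1KO replicate 4 was the sample far from the others in 4 of the 5. It belongs to the set of 2 arrays, which was found from all probe sets, members included. It measured 6.84 for Il7r against 8.23 to 8.24 in the others, 9.78 for Ccr7 against 11.90 to 12.26, 5.79 for Cd1d1 against 7.78 to 8.06, and 5.80 for Zap70 against 6.15 to 6.20. ReconRAG1KO replicate 1 measured 8.85 for Ikzf1 against 9.08 to 9.12. In reconSCID replicate 2, the other array of that set, Il7r, Ccr7 and Cd1d1 were low as well, at 7.19, 10.26 and 5.86, whereas Zap70 was at its highest, 6.55.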

How the results depend on the processing

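In all 25 alternatives with a test 0 members passed, and the smallest limma adjusted p of any member was 0.1681 (Endou with array weights, and Il7r where only the 5 arrays count). Of these alternatives, array weights alone gave probe sets that passed, 47 higher and 10 lower, none of them a member. That fit weighted the set of 2 arrays at 0.16 and 0.12, and the cause of the calls was not tested. The member, early and mature medians and the gap between the last 2 moved by less than the spread between samples in all 26 settings, but their signs were not stable. Leaving out 1 sample, the member median ran from -0.10 to 0.22. Single members changed sign in 0 to 13 cases per setting. The count of members lower in reconSCID (17) ran from 8 (without reconRAG1KO replicate 2) to 24 (without reconSCID replicate 3), and under the array block from 7 (without reconSCID replicate 1) to 19. The replicate numbers did not pair the samples, with correlations of deviations of 0.472, -0.508 and 0.314. With the replicate number as a block 0 members passed, the member, early and mature medians were -0.07, -0.18 and -0.11, and 22 members were lower, where reconRAG1KO replicate 4 has no partner and adds nothing. A filter on dim probe sets left 29 members.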

Other observations

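Outside the list, 20 genes had the order of arrays of Rag1. They were found after their values were seen and carry no test. Itm2a, a membrane protein gene known in developing thymocytes, spanned 2.78 on the log2 scale, from 5.47 in reconSCID replicate 2 to 8.25 in reconSCID replicate 3. BC147527 spanned 2.81, Sap30 2.28 and Osm, a cytokine gene of white blood cells, 1.53. Csk, a kinase that restrains the Src family kinases of the receptor, spanned 0.68, and Ddx17 had the narrowest span of the 20, 0.17.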
